A study of Drosophila melanogaster with 103 samples.

Results

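Ph peaks without Pc are places where a cell line has a deposited peak for Polyhomeotic (Ph) that shares no base with any deposited Polycomb (Pc) peak of that line. They were chosen by the positions of called Ph and Pc peaks, with no cutoff on fold, in 3 Drosophila melanogaster lines, and numbered 8138 of the 13643 Ph peaks, in a series of 227654 peaks. The other 5505 Ph peaks, which share at least 1 bp with a Pc peak, are the Ph peaks with Pc. D17 had 2607 Ph peaks without Pc and 755 with Pc, Kc167 had 2272 and 3844, and S2 had 3259 and 906.

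Ph and Pc are known as core subunits of Polycomb repressive complex 1 (PRC1), which binds to silenced developmental genes. In flies the complex is brought to Polycomb response elements by DNA-binding factors such as Pho, GAF and Spps. Pc carries the chromodomain that binds H3K27me3, the mark set by E(z) in PRC2, while Ph has a SAM domain through which it forms polymers. Psc is a further PRC1 subunit, Sce with Psc places H2AK118ub1, and Sfmbt pairs with Pho.

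All libraries came from cultured cells fixed with formaldehyde with no treatment named. D17 (ML-DmD17-c3) derives from imaginal disc tissue, S2 is an embryonic line with blood cell features and Kc167 is another embryonic line. Each antibody had 2 replicate libraries per line from separate flasks, and each line had 1 input library. The files are 50 peak lists in build dm6, 1 per antibody and line, for 20 antibodies in D17, 10 in Kc167 and 20 in S2. They hold no value per library and no expression values, so neither the depth of a library nor the identity of a line could be checked, and no test between replicates was possible. Shares therefore carry exact (Clopper-Pearson) 95% binomial intervals, which cover counting error only.

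Without a Pc peak stood 77.5% of the D17 Ph list (76.1% to 78.9%), 37.1% of the Kc167 list (35.9% to 38.4%) and 78.2% of the S2 list (77.0% to 79.5%). The Pc lists differed in length, with 2529 peaks in D17, 6298 in Kc167 and 2387 in S2. With each Pc list shortened by score to 2387 peaks, the Kc167 share became 68.0%, at 4161 Ph peaks without Pc. A peak without Pc lacks a called Pc peak. Pc signal under the calling threshold is not in the files.

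Most Ph peaks without Pc in D17 and S2 lay far from any Pc peak, and those of Kc167 lay nearer to one. Their median distance to the nearest Pc peak was 45918 bp in D17, 4719.5 bp in Kc167 and 38662 bp in S2. Over 10 kb away were 83.2% of them in D17, 32.1% in Kc167 and 80.1% in S2, while 2.88%, 17.6% and 3.53% had a Pc peak within 1 kb. Few lay at the border of the rule. A gap to Pc of 1 to 50 bp held 1 Ph peak without Pc in D17, 9 in Kc167 and 6 in S2, with median Ph folds of 6.69, 2.58 and 2.31. An overlap of 1 to 50 bp held 7, 7 and 6 Ph peaks with Pc, with median folds of 2.14, 2.74 and 6.64.

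Ph peaks without Pc were narrower and of somewhat lower fold enrichment (the peak caller's ratio of ChIP over background, the authors' value) than Ph peaks with Pc, yet they included some of the highest folds of each list. Their median width was 721 bp against 890 bp with Pc in D17, 438 bp against 749 bp in Kc167 and 408 bp against 561 bp in S2. The median fold was 3.80 without Pc and 4.30 with Pc in D17, 2.67 and 3.35 in Kc167, and 2.96 and 3.48 in S2. The highest fold was 51.8 without Pc and 46.0 with Pc in D17, 51.6 and 76.1 in Kc167, and 40.1 and 57.2 in S2. Among the 100 highest folds of a list, Ph peaks without Pc held 55 places in D17, 15 in Kc167 and 30 in S2. In the top fold quartile of the Ph list they made up 71.6% in D17, 25.2% in Kc167 and 68.7% in S2.

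In D17 and S2, Ph peaks without Pc lay mostly under H3K27ac, a mark of active promoters and enhancers, and rarely under H3K27me3. H3K27ac covered 68.6% of them in D17 (66.8% to 70.4%), against 28.2% of Ph peaks with Pc (25.03% to 31.57%). In S2 the shares were 57.3% without Pc (55.6% to 59.1%) and 29.9% with Pc (26.9% to 33.0%). H3K27me3 covered 1.46% of the D17 peaks without Pc and 57.0% of those with Pc, and 9.63% and 51.0% in S2. Over all Ph peaks of the line, H3K27ac covered 59.5% in D17 and 51.4% in S2, and H3K27me3 covered 13.9% and 18.6%. The intervals of the 2 sets did not overlap for either mark in either line.

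Kc167 stood the other way round for H3K27ac with its whole Pc list. H3K27ac covered 55.2% of the Kc167 Ph peaks without Pc (53.1% to 57.3%) and 72.8% of those with Pc (71.4% to 74.2%), against 66.3% of all Ph peaks. H3K27me3 covered 8.27% without Pc and 16.9% with Pc, against 13.7% of all Ph peaks. With the Kc167 Pc list shortened to 2387 peaks, H3K27ac covered 67.5% without Pc (66.0% to 68.9%) and 63.7% with Pc (61.6% to 65.9%), a difference of 3.75 percentage points in the direction of the other lines. H3K27me3 then covered 7.21% without Pc and 27.6% with Pc. The direction for H3K27ac in Kc167 thus depended on how long the Pc list was, and the length of the Pc list cannot be told apart from the line.

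**Figure D1:**
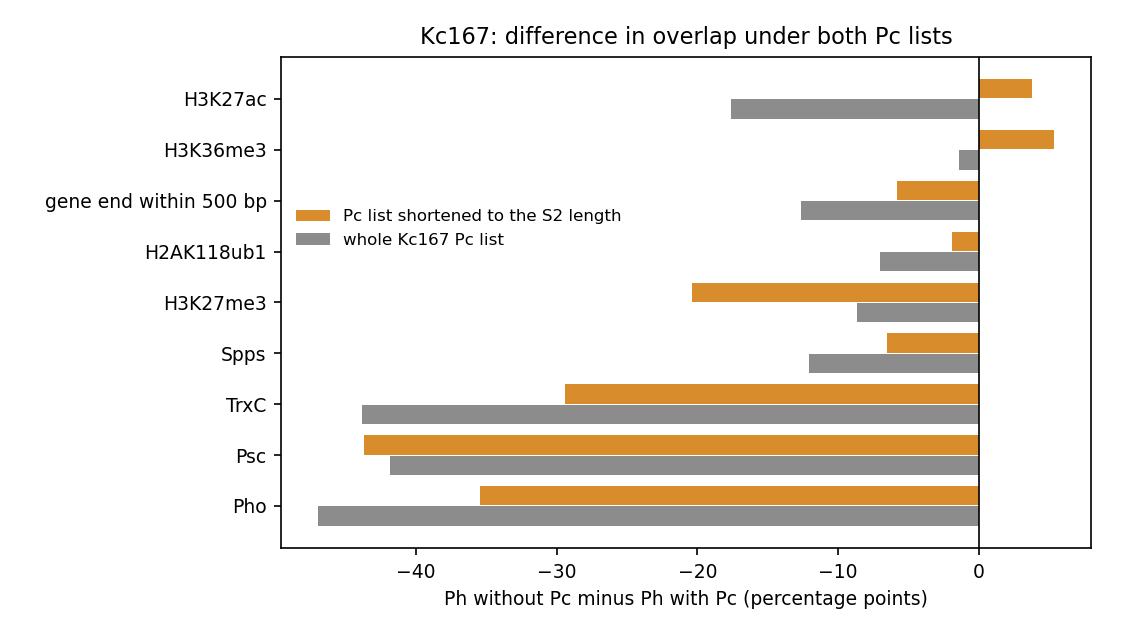
Difference in the share of Kc167 Ph peaks overlapped, peaks without Pc minus peaks with Pc, in percentage points, for the Pc list shortened to 2387 peaks (orange) and the whole Pc list (grey). Bars for H3K27ac and H3K36me3 change side (3.75 against -17.6 and 5.36 against -1.41 points), while those for the Polycomb proteins and H3K27me3 stay negative.

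The other marks of active genes were measured in D17 and S2, and for H3K36me3 in all 3 lines. H3K4me3, a promoter mark, covered 44.8% of Ph peaks without Pc and 15.8% of those with Pc in D17, and 38.5% and 18.9% in S2. H3K36me3, found over transcribed gene bodies, covered 17.7% and 6.36% in D17 and 11.5% and 5.41% in S2. In Kc167 it covered 19.9% without Pc and 21.3% with Pc, with overlapping intervals. H3K36me2 covered 7.67% without Pc and 3.05% with Pc in D17, and 17.1% and 11.5% in S2. H3K4me2 differed little, at 44.2% and 47.8% in D17 and 33.7% and 30.1% in S2, with overlapping intervals in both lines.

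Combinations split the Ph peaks without Pc into 3 large groups. H3K27ac together with H3K4me3 covered 40.9% of them in D17 and 34.0% in S2, against 13.9% and 14.8% of those with Pc. H3K27ac without H3K4me3 covered 27.8% in D17 and 23.4% in S2. None of H3K27ac, H3K4me2, H3K4me3 and H3K27me3 lay over 23.7% in D17 and 27.5% in S2, against 14.6% and 17.1% of those with Pc. H3K27ac and H3K27me3 lay together over 2 Ph peaks without Pc in D17, 3 in Kc167 and 13 in S2.

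H2AK118ub1, the PRC1 mark, was found over fewer Ph peaks without Pc than with Pc in D17 and S2, and in Kc167 with its whole Pc list. Its shares were 43.0% without Pc and 77.9% with Pc in D17, 38.5% and 45.5% in Kc167, and 18.4% and 33.7% in S2. For the shortened Kc167 Pc list the shares were 42.3% and 44.2%, with overlapping intervals, and in the lowest Ph fold quartile of Kc167 the mark lay over 39.7% without Pc and 32.4% with Pc. Within the D17 peaks without Pc, 71.5% of those under H2AK118ub1 were also under H3K27ac, against 66.4% of the rest. In Kc167 these shares were 64.8% and 49.2%. In S2 they went the other way, at 47.9% and 59.5%. Ph peaks without Pc under H2AK118ub1 lay less often near gene ends than the others. A gene end is either end of a protein-coding gene, since the gene table gives no strand. In D17, 37.1% of peaks without Pc under the mark had a gene end within 500 bp, against 50.7% of those not under it. In Kc167 these shares were 20.7% and 50.0%, and in S2 32.1% and 44.0%.

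**Figure D2:**
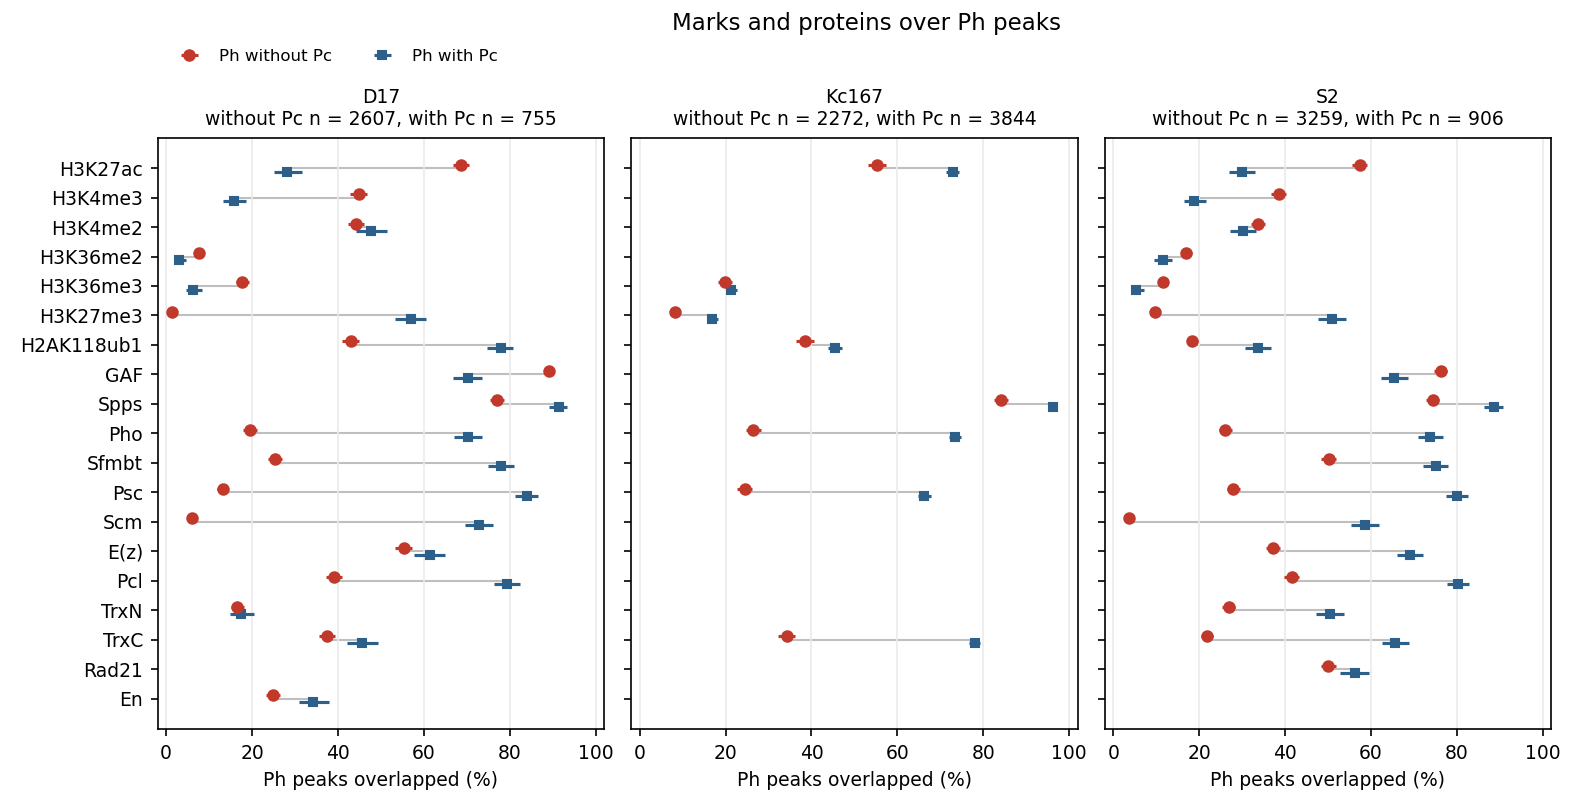
Share of Ph peaks (percent, horizontal axis) overlapped by at least 1 bp by each mark or protein, for peaks without Pc (red circles) and with Pc (blue squares) in D17, Kc167 and S2; bars are exact 95% binomial intervals and rows without points had no list in that line. H3K27ac lies to the right for peaks without Pc in D17 and S2 (68.6% and 57.3%), and Psc, Scm, Pho and Sfmbt lie to the left in each line that has a list.

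Scm, and Psc in D17 and Kc167, had the lowest shares of the Polycomb group proteins over Ph peaks without Pc. Psc, the PRC1 subunit, lay over 13.2% of them and over 84.0% of Ph peaks with Pc in D17, over 24.4% and 66.3% in Kc167, and over 28.0% and 80.1% in S2. Scm, a SAM domain partner of Ph, lay over 6.06% and 72.8% in D17, and over 3.74% and 58.7% in S2. Psc lay over 36.7% of the Kc167 peaks without Pc and 80.5% of those with Pc when the Kc167 Pc list was shortened. Both Psc and Scm lay over 65 Ph peaks without Pc in D17 and 68 in S2.

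Recruiting factors divided into 2 kinds. Pho lay over 19.5% of Ph peaks without Pc and 70.3% of those with Pc in D17, over 26.5% and 73.4% in Kc167, and over 26.1% and 73.8% in S2. The Kc167 shares of Pho were 44.7% and 80.1% when its Pc list was shortened. Its partner Sfmbt lay over 25.3% and 78.0% in D17 and over 50.1% and 75.1% in S2. In S2, 29.5% of the Ph peaks without Pc had Sfmbt without Pho, against 11.8% of those with Pc. In D17 these shares were 11.2% and 10.9%, with an Sfmbt list of 2070 peaks against 4408 in S2. GAF, which binds GA-rich repeats, went the other way. It lay over 89.2% of Ph peaks without Pc (87.97% to 90.39%) and 70.2% of those with Pc (66.8% to 73.4%) in D17, and over 76.3% (74.8% to 77.7%) and 65.5% (62.3% to 68.5%) in S2. Spps, a zinc finger protein of response elements, was frequent in both sets, with 77.0% without Pc and 91.4% with Pc in D17, 84.2% and 96.2% in Kc167, and 74.4% and 88.6% in S2. At least 1 of GAF and Spps lay over 97.5% of the D17 peaks without Pc and 87.5% of the S2 peaks without Pc. The shares with Pc were 95.8% in D17 and 91.6% in S2.

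PRC2 proteins were present at many Ph peaks without Pc although H3K27me3 was rare there. E(z), the H3K27 methyltransferase, lay over 55.3% of them and 61.3% of those with Pc in D17, and over 37.2% and 69.1% in S2. E(z) without H3K27me3 described 54.8% of Ph peaks without Pc and 24.0% of those with Pc in D17, and 35.4% and 32.0% in S2. Pcl, a PRC2 accessory protein, lay over 39.1% and 79.5% in D17 and over 41.5% and 80.4% in S2, where its list was much longer (15159 peaks against 4065 in D17). None of the 6 other Polycomb group lists (E(z), Pcl, Pho, Psc, Scm and Sfmbt) lay over 24.7% of the D17 peaks without Pc and 23.4% of those of S2, against 2.65% and 4.30% with Pc.

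Trithorax, the H3K4 methyltransferase that counteracts Polycomb silencing, was measured with 2 antibodies. The C-terminal part (TrxC) lay over 37.4% of Ph peaks without Pc and 45.7% of those with Pc in D17, over 34.2% and 78.0% in Kc167, and over 21.8% and 65.7% in S2. The Kc167 shares of TrxC were 52.4% and 81.7% when its Pc list was shortened. The direction in D17 changed with Ph fold. TrxC lay over 31.2% without Pc and 23.5% with Pc in the lowest D17 fold quartile, and over 43.2% and 72.4% in the highest. The N-terminal part (TrxN) lay over 16.6% and 17.5% in D17, with overlapping intervals, and over 26.9% and 50.4% in S2. Within the Ph peaks without Pc, TrxN marked gene ends: 86.6% of the D17 peaks under TrxN had a gene end within 500 bp and 90.97% had H3K4me3, against 36.6% and 35.7% of the others. In S2 these shares were 74.4% and 78.5% under TrxN, against 29.8% and 23.8% of the others. Engrailed (En), a homeodomain repressor tested in D17, lay over 24.9% without Pc and 34.3% with Pc. The cohesin subunit Rad21, tested in S2, lay over 50.0% and 56.2%.

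Across the 3 lines, 8 antibodies other than Ph and Pc had lists in each. For 6 of them (H2AK118ub1, H3K27me3, Pho, Psc, Spps and TrxC) the share was lower without Pc in 3 of 3 lines, and H3K27ac and H3K36me3 were higher without Pc in 2 of 3. An exact two-sided sign-flip permutation test over the 3 lines gave p = 0.25 for each of the 6, the smallest value that 3 lines allow, and 0.333 after Benjamini-Hochberg adjustment over the 8. H3K27ac and H3K36me3 had an exact permutation p of 0.5. Ph peaks without Pc were narrower, which by itself gives less room for an overlap of 1 bp. When the other peak had to lie over the midpoint of the Ph peak, the direction changed in 2 of 44 pairs of antibody and line (H3K36me3 in Kc167 and H3K4me2 in S2).

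The number of other lists over a Ph peak without Pc, marks and proteins together, was higher at higher Ph fold in D17 and S2 and not in Kc167. Kc167 had fewer lists, with none for E(z) or GAF, so line and set of antibodies cannot be told apart here. Ph peaks without Pc of D17 had a median of 6 of the 18 other lists over them, against 10 for Ph peaks with Pc. S2 gave the same medians of 6 and 10. In Kc167 the medians were 3 and 5 of 8 lists. No other list lay over 3 Ph peaks without Pc in D17, 117 in Kc167 and 26 in S2. From the lowest to the highest fold quartile the median number of other lists over them was 5, 5, 7 and 8 in D17, 3 in each quartile of Kc167, and 5, 6, 6 and 8 in S2. For Ph peaks with Pc the medians were 8, 9, 10 and 12 in D17, 5 in each quartile of Kc167, and 7, 9, 9 and 12 in S2.

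E(z), GAF and Spps lay over most Ph peaks of highest fold, without Pc and with Pc alike. E(z) lay over 8.53%, 33.4%, 82.7% and 99.7% of the D17 peaks without Pc from the lowest to the highest Ph fold quartile, and over 18.6%, 20.2%, 32.8% and 84.5% in S2. GAF lay over 71.5% of the lowest and 99.3% of the highest quartile in D17, and over 41.2% and 98.3% in S2. Spps lay over 63.7% and 98.2% in D17, 72.8% and 99.7% in Kc167, and 50.7% and 97.5% in S2. In the highest quartile of Ph peaks with Pc, E(z) lay over 99.2% in D17 and 96.3% in S2, GAF over 97.1% and 93.6%, and Spps over 99.6% in D17, 99.6% in Kc167 and 99.1% in S2. In the lowest quartile with Pc, E(z) lay over 20.9% in D17 and 40.7% in S2. Peaks without Pc under E(z) had a median Ph fold of 7.09 in D17, against 2.35 for the Ph peaks without Pc not under E(z), and 6.10 against 2.46 in S2. They were also wider, with medians of 931 bp against 483 bp and 604 bp against 345 bp. Peaks without Pc over all 3 of E(z), GAF and Spps numbered 1250 in D17 (47.9%) and 1005 in S2 (30.8%). Among Ph peaks with Pc the shares were 50.7% in D17 and 49.7% in S2.

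Psc did not follow fold in this way, and neither did H3K27me3. Psc lay over 12.1% of the lowest and 18.3% of the highest fold quartile without Pc in D17, 31.3% and 21.5% in Kc167, and 27.1% and 31.6% in S2. H3K27me3 was most frequent in the lowest quartile of the D17 and S2 peaks without Pc, at 2.79% and 23.9%, and lay over 0.498% and 3.22% of the highest. In Kc167 it lay over 5.51% of the lowest and 5.96% of the highest. H3K27ac stayed higher without Pc than with Pc in 4 of 4 quartiles in D17 and in S2, and lower in 4 of 4 in Kc167. In the highest quartile it lay over 77.9% without Pc and 28.0% with Pc in D17, 63.2% and 70.8% in Kc167, and 70.2% and 26.7% in S2.

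**Figure D3:**
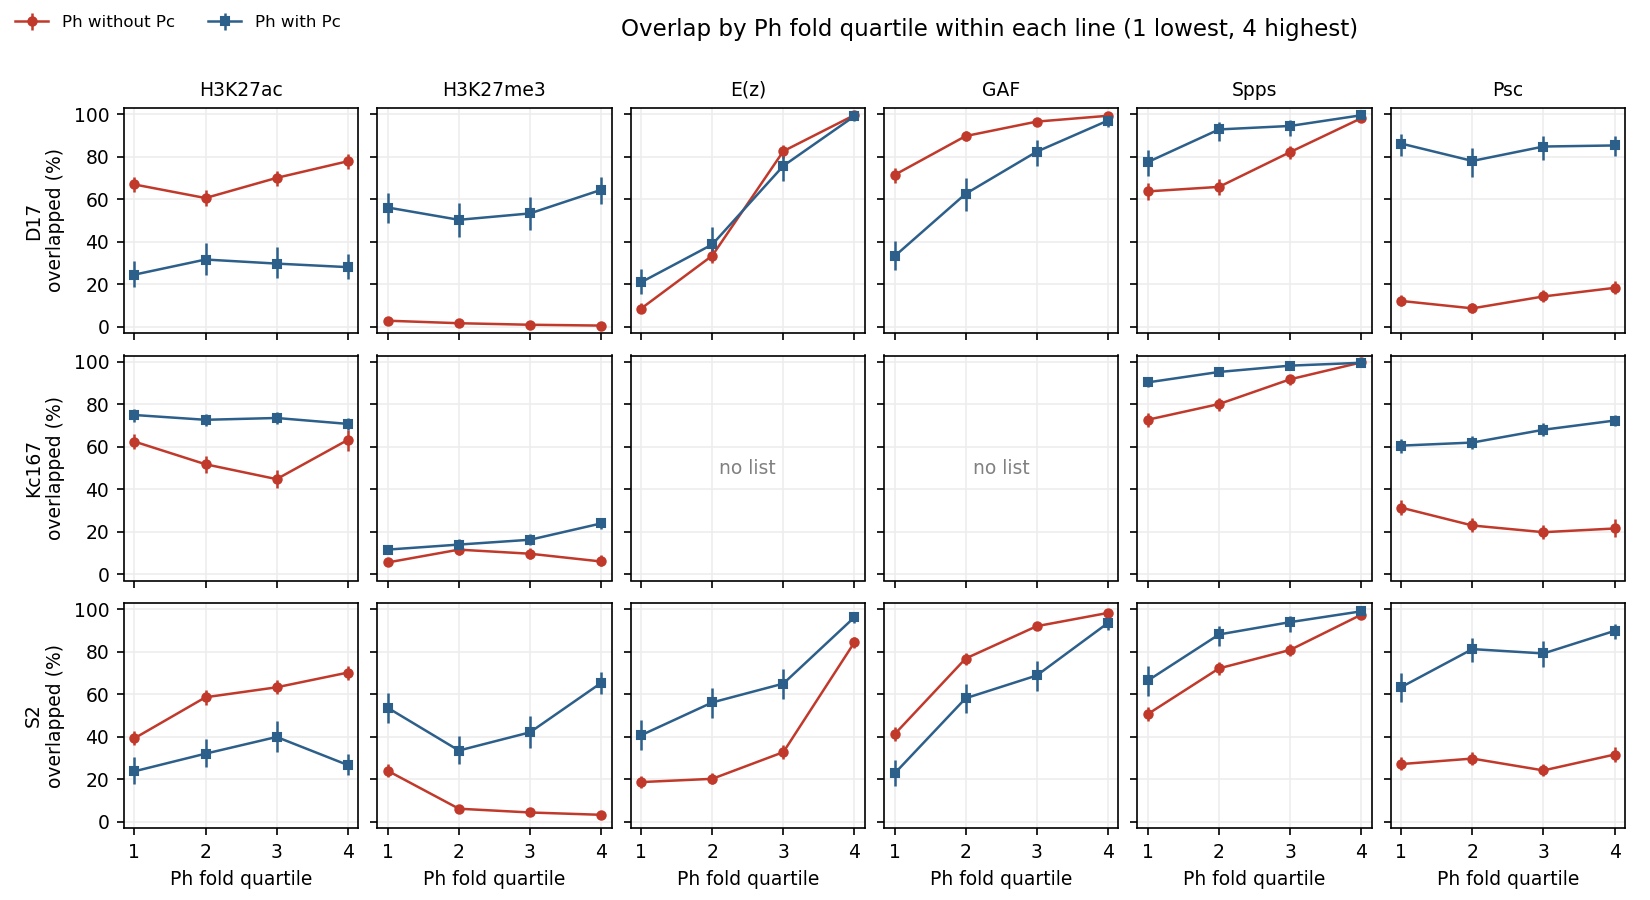
Share of Ph peaks overlapped (percent, vertical axis) by 6 marks or proteins in each quartile of Ph fold within the line's list (1 lowest, 4 highest), for peaks without Pc (red circles) and with Pc (blue squares), with exact 95% binomial intervals. E(z) climbs in both sets, to 99.7% of the D17 and 84.5% of the S2 peaks without Pc and 99.2% and 96.3% of those with Pc in quartile 4, while without Pc H3K27me3 stays at 0.498% and 3.22% there.

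Ph peaks without Pc lay mostly at gene ends or inside genes, and the share of the genome in such places was not measured. A gene end was within 500 bp for 44.8% of them and 34.6% of Ph peaks with Pc in D17, 38.7% and 51.4% in Kc167, and 41.8% and 37.2% in S2. The S2 intervals overlapped. With the Kc167 Pc list shortened, its shares were 44.8% without Pc and 50.6% with Pc. Inside a gene body and over 500 bp from its ends were 47.1% of the peaks without Pc and 34.7% of those with Pc in D17, 47.8% and 37.0% in Kc167, and 45.8% and 31.8% in S2. Outside gene bodies and over 500 bp from an end were 8.06% and 30.7% in D17, 13.4% and 11.6% in Kc167, and 12.4% and 31.0% in S2. Here the Kc167 intervals overlapped. Median distances to a gene end were 843 bp without Pc and 2354 bp with Pc in D17, 1524.5 bp and 422 bp in Kc167, and 958 bp and 1543.5 bp in S2.

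The contrast in H3K27ac held at both kinds of place. Within 500 bp of a gene end, H3K27ac lay over 74.1% of the Ph peaks without Pc and 33.3% of those with Pc in D17, 65.3% and 81.1% in Kc167, and 65.8% and 35.6% in S2. Farther away it lay over 64.2% and 25.5% in D17, 48.8% and 64.1% in Kc167, and 51.3% and 26.5% in S2. H3K4me3 followed place more closely, covering 68.9% of the D17 peaks without Pc near a gene end and 25.3% of those farther away, and 62.2% and 21.5% in S2. GAF lay over 91.2% of the peaks without Pc near gene ends and 87.6% of those farther away in D17, and over 76.0% and 76.5% in S2. For Ph peaks with Pc these shares of GAF were 85.1% and 62.3% in D17, and 73.9% and 60.5% in S2. Near gene ends in S2 the intervals of the 2 sets overlapped. On the chromosome arms 2L, 2R, 3L, 3R and X the share of Ph peaks without Pc ran between 71.8% (3R) and 83.8% (3L) in D17, 31.3% (2R) and 41.2% (2L) in Kc167, and 74.5% (3R) and 84.1% (3L) in S2. Chromosome 4 had 5 of 15 in D17 (33.3%, 11.8% to 61.6%).

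The 10 highest folds of each line were named with their nearest gene end and host gene. In D17 the highest was inside Pde8, which encodes a cyclic nucleotide phosphodiesterase (2R, 23666340 to 23667636, fold 51.8), 8772 bp from a gene end and 6763 bp from the nearest Pc peak. E(z), GAF, Spps, Pcl, H2AK118ub1, H3K4me2 and TrxN lay over it, with neither H3K27ac nor H3K27me3. Its S2 counterpart had a fold of 28.95 and was also without Pc, while the Ph peak there in Kc167 had Pc. The next lay inside Raf, the kinase that acts between Ras and MEK (X, 2317374 to 2318658, fold 43.4), 175764 bp from a Pc peak. The overlapping Raf peak was the highest of S2 (fold 40.1), without H3K27ac in S2 and with it in D17.

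The other 8 of D17 included genes of signalling and transcription. They lay in CG12075 (fold 41.9), in ush, which encodes a cofactor of GATA factors (39.1), in kay, the fly Fos (38.6), in the forkhead gene CHES-1-like (37.5) and in Eip74EF, an ETS factor induced by ecdysone (36.8). They also lay at CG13506 and wrapper (36.8), near CG1146 inside Svil, the supervillin gene (35.1), and at fng, which encodes the glycosyltransferase that modifies Notch (34.1). E(z), GAF and Spps lay over each of the 10, H3K27ac over 9 and H3K27me3 over none.

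Kc167's 10 highest had no Pc in D17 or S2 either. They were at Mrp4, an ABC transporter gene (3R, 11568526 to 11569813, fold 51.6), inside CG1146 and Svil (43.8), CG13917 (37.2) and the nuclear receptor gene ftz-f1 (35.6), and at blot and Sec3 (35.4) and Ak3, an adenylate kinase gene (34.5). The last 4 were inside shot, which encodes a spectraplakin (33.0), bun (31.4), Jupiter, a microtubule protein gene (31.2), and CHES-1-like (30.9). Pc lay close to several of them, at 597 bp from the CG1146 peak and 948 bp from the Mrp4 peak. In S2, after Raf, the highest were near CG14762 (31.7), at Mrp4 (31.5), inside Pde8, at CG1146 (28.8), inside cpo, an RNA-binding protein gene (27.4), at GstE12 and Eps-15 (26.5), inside Mnt, a member of the Myc network (26.4), inside Eip74EF (26.0), and at scyl, an inhibitor of TOR signalling (25.7). The peak in cpo lay under H3K27me3 and Psc.

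Genes with a Ph peak without Pc within 500 bp of an end numbered 1637 of 13946 protein-coding genes for D17 (11.7%), 1268 for Kc167 (9.09%) and 1850 for S2 (13.3%). Genes with a Ph peak with Pc there numbered 298 for D17 (2.14%), 2918 for Kc167 (20.9%) and 413 for S2 (2.96%). With the shortened Pc list, Kc167 had 2759 genes without Pc (19.8%). A Ph peak without Pc stood at 394 genes in all 3 lines (2.83%). Counts over gene lists are read against these shares. Genes next to each other can share a peak, as mys and fs(1)h do.

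Receptor signalling through EGF and FGF, which drives the Ras and MAP kinase cascade, gave the largest shares in D17 and S2 among the 16 lists. Ph peaks without Pc stood at 16 of 23 genes in D17, 7 in Kc167 and 15 in S2, while Ph peaks with Pc stood at 0, 12 and 0. Raf had Ph folds of 24.5 in D17 and 18.9 in S2 at its end. The ETS activator gene pnt was without Pc in each line, at 8.09 in D17, at 11.985 in Kc167 and at 6.52 in S2. Mkp3, a phosphatase of MAP kinases, had 11.9 in D17 and 8.30 in S2, and the ETS repressor gene aop 11.6 and 9.37. Raf, Mkp3 and aop had a Ph peak with Pc in Kc167, and Raf had one without Pc there as well (3.65). At 5 of the 23 genes (Raf, pnt, aos, vn and edl) a Ph peak without Pc stood in all 3 lines, against 2.83% of all genes.

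Ecdysone genes belong to the response to the moulting hormone. Ph peaks without Pc stood at 11 of 23 in D17, at 6 in Kc167 and at 12 in S2, while Ph peaks with Pc stood at 2, 10 and 1. At 6 of the 23 the Ph peak was without Pc in all 3 lines, against 2.83% of all genes. The orphan nuclear receptor gene Hr4 had folds of 22.8, 21.2 and 18.2 in D17, Kc167 and S2, Eip74EF 14.7, 17.5 and 13.4, and the nuclear receptor gene Hnf4 15.3, 9.79 and 14.4. The zinc finger gene crol had 19.5 in D17 and 7.005 in S2, and its Kc167 peak had Pc (19.9).

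Notch pathway genes had Ph peaks without Pc at 11 of 23 in D17, at 5 in Kc167 and at 11 in S2, while Ph peaks with Pc stood at 3, 13 and 2. The fng peak had folds of 34.1 in D17 and 21.8 in S2, and 40.9 in Kc167, with Pc there. Mam, the coactivator mastermind, had 13.1 and 9.64, with Pc in Kc167 (15.2). Of 2 E(spl) genes, which are Notch targets, E(spl)m3-HLH had 8.92 in D17 and a peak with Pc in S2 (8.59), and E(spl)mdelta-HLH had 8.17 in D17 and 3.99 in S2.

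Stress and adhesion genes gave similar counts in D17 and S2. In the list of JNK signalling and stress they stood at 12 of 25 in D17, 11 in Kc167 and 13 in S2, against 0, 10 and 1 with Pc. Thor, the inhibitor of the cap-binding protein eIF4E, had 19.7 and 18.4 in D17 and S2, the small heat shock gene Hsp22 18.8 and 13.5, and foxo 16.1 and 11.9, while Irbp18, a C/EBP-like factor gene, had 8.13 in D17 and 12.95 in Kc167. In the list of actin and adhesion they stood at 14 of 26 in D17, 4 in Kc167 and 10 in S2, against 0, 16 and 1 with Pc. The integrin beta gene mys had 18.1 in D17 and 12.1 in S2, Act5C 10.4 and 7.24, the laminin gene LanB2 9.13 and 3.05, and Rho1 8.11 and 5.60, each with Pc in Kc167. For cell cycle genes the counts were 11, 6 and 11 of 31 without Pc and 1, 16 and 1 with Pc. Myc had 19.29 and 10.54 in D17 and S2, and gem, the gemini gene, which this list counts, 18.7 and 13.5. The trbl folds were 14.93 and 13.04, and CycE had 8.78, 10.1 and 9.93 in D17, Kc167 and S2. The Hippo list had 7, 4 and 7 of 18 without Pc and 1, 10 and 1 with Pc. Its highest folds were at ft, an atypical cadherin gene (24.98 in D17), and at sd, the partner of Yorkie (15.85 in D17 and 26.96 in Kc167). The D17 peak counted for ft lay over Naprt, whose end was nearer.

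Among developmental patterning genes, more had a Ph peak with Pc than one without Pc. Homeotic genes had no Ph peak without Pc within 500 bp of an end, at 0 of 8 in each line, while Ph peaks with Pc stood at 7 of the 8 in D17, at 6 in Kc167 and again at 7 in S2. These 8 genes are too few to set 0 apart from the 11.7%, 9.09% and 13.3% of all genes. Segmentation genes had 3, 0 and 3 of 28 without Pc, near the share of all genes in D17 and S2 at 10.7% in each. With Pc they had 19, 22 and 17 (67.9%, 78.6% and 60.7%), against 2.14%, 20.9% and 2.96% of all genes. In D17 the 3 without Pc were ptc, the Hedgehog receptor gene (fold 21.5), ci (2.203) and hry (1.80). The Ph peak at ptc had Pc in Kc167 and S2. Appendage genes had 1, 3 and 2 of 33 without Pc and 24, 24 and 22 with Pc, and the highest fold was at sd. The repressor gene brk had a Ph peak without Pc in S2 (16.4) and with Pc in D17 (23.7) and Kc167 (25.9).

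In D17 the remaining lists had Ph peaks without Pc at 5.26% to 26.7% of their genes. Polycomb group genes had 4, 4 and 5 of 27 without Pc and 5, 15 and 7 with Pc, with ph-p, ph-d, Psc and Su(z)2 bearing Pc in each line. Trithorax group genes had 8, 3 and 5 of 30 without Pc and 1, 17 and 4 with Pc, led in D17 by Trl, the GAF gene (33.1), skd, a Mediator subunit gene (27.2), psq (20.4) and kis (18.7). JAK-STAT genes had 2, 2 and 5 of 13 without Pc and 4, 10 and 3 with Pc, with the receptor gene dome at 29.2 in D17 and 12.1 in S2. Chromatin architecture genes had 3, 2 and 2 of 22 and 0, 11 and 2. Hemocyte genes had 1, 3 and 3 of 19 and 3, 5 and 3, and translation genes 3, 2 and 6 of 20 and 0, 7 and 0, with eIF4E1 at 13.6 in D17 and 8.27 in S2. With the Kc167 Pc list shortened, its counts without Pc became 13 for EGF and FGF signalling, 16 for JNK and stress, 15 for actin and adhesion, 16 for cell cycle, 12 for Notch and 9 for ecdysone, with 0 homeotic, 1 segmentation and 3 appendage genes, against 19.8% of all genes.

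**Figure D4:**
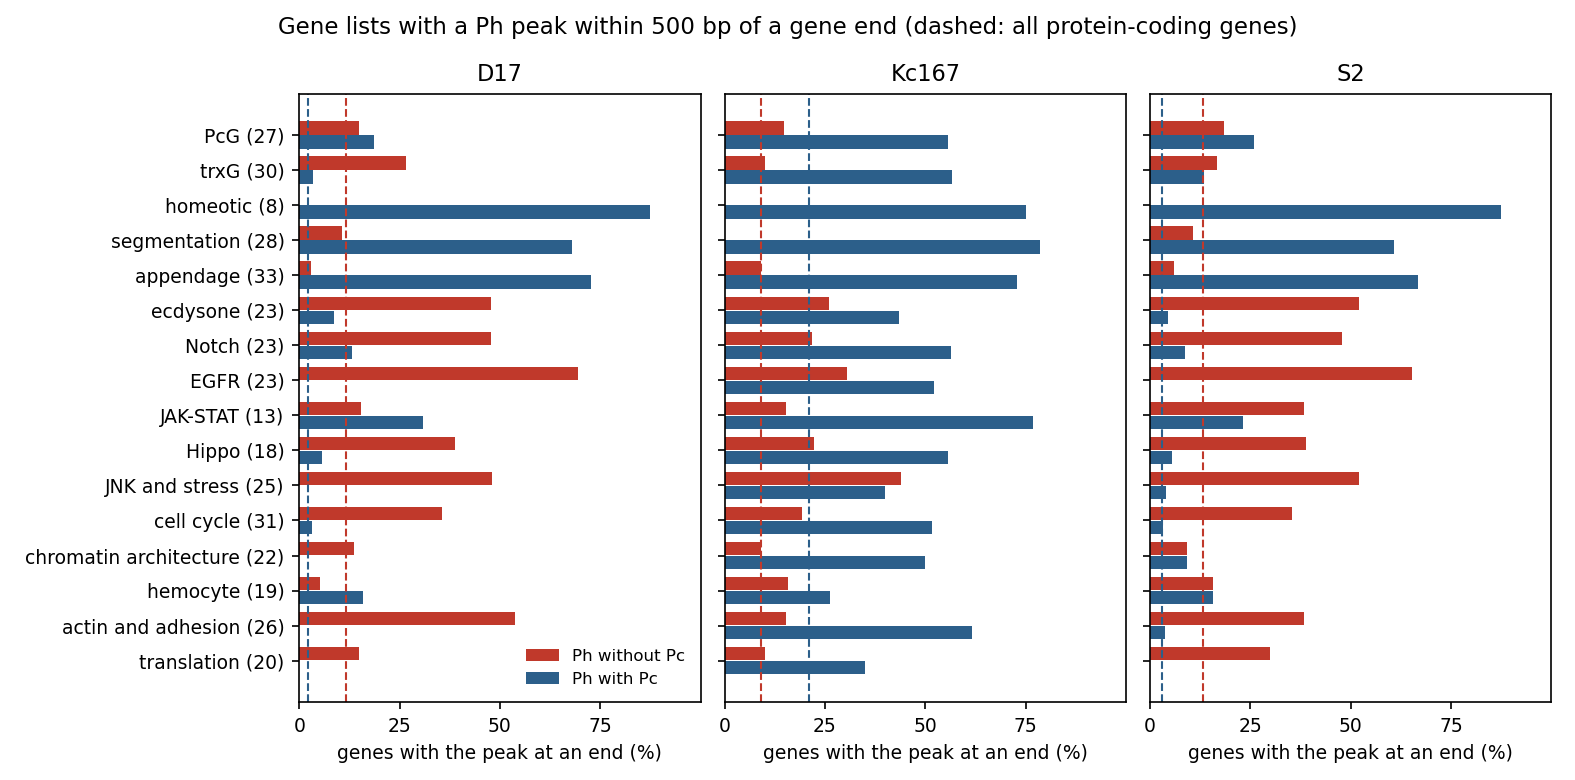
Share of the genes of 16 lists (list size in parentheses) with a Ph peak within 500 bp of a gene end, for peaks without Pc (red) and with Pc (blue) in each line; dashed lines are the shares over 13946 protein-coding genes. EGF receptor genes have red bars at 69.6% in D17 and 65.2% in S2, and homeotic genes have no red bar.

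Several long genes held many Ph peaks without Pc. Eip75B, an ecdysone-induced nuclear receptor gene of 113.744 kb, held 17 in D17, 11 in Kc167 and 19 in S2, with 1, 23 and 1 with Pc. Few of them were under H3K27ac, at 0, 3 and 2. In D17, sbb held 13, all under H3K27ac, and ush, Eip74EF and Raf held 10 each, of which 8, 5 and 9 were under H3K27ac. In S2, Eip74EF held 16, ftz-f1 13 and Hr4 12, the last with none under H3K27ac. Myo81F, which spans 1966 kb next to the centromere of 3R, held 20 in S2, and shot, ftz-f1 and lovit held 8 each in Kc167. Longer genes have more room for peaks, and these counts are not corrected for length.

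Most places of Ph without Pc in D17 and S2 carried Ph in another line too. At least 1 other line had a Ph peak over 88.9% of the D17 peaks without Pc and 78.9% of those with Pc, over 50.5% and 63.3% in Kc167, and over 84.2% and 84.4% in S2. The Kc167 Ph list was the longest, at 6116 peaks against 3362 in D17 and 4165 in S2. With Ph lists of equal length the shares without Pc were 80.8% in D17, 75.9% in Kc167 and 86.8% in S2. Peaks with Ph in both other lines had higher folds. Their median was 5.36 in D17, against 2.12 for those in no other line, 6.48 against 2.09 in Kc167, and 4.38 against 1.63 in S2. In S2, H3K27ac lay over 67.0% of the peaks without Pc found in both other lines and 16.3% of those found in none. In Kc167 it was 50.6% and 59.9%.

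Whether Pc was also absent in the other line depended on which line that was. D17 peaks without Pc overlapped an S2 Ph peak without Pc in 66.9% of cases (65.1% to 68.7%) and one with Pc in 5.72%. In Kc167 they overlapped a Ph peak without Pc in 30.5% and one with Pc in 56.4%. S2 peaks without Pc overlapped a D17 Ph peak without Pc in 59.4% and one with Pc in 3.47%. In Kc167 these shares were 28.0% and 54.5%. For S2 peaks with Pc they were 16.3% and 52.3% in D17, and 4.42% and 75.1% in Kc167. Kc167 peaks without Pc rarely had Pc elsewhere, with 1.36% over a D17 and 1.80% over an S2 Ph peak with Pc. For Kc167 peaks with Pc these shares were 14.2% and 17.1%. Of the Kc167 peaks without Pc, 61.6% had neither protein in D17 and 58.9% in S2, against 45.4% and 39.6% of those with Pc.

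**Figure D5:**
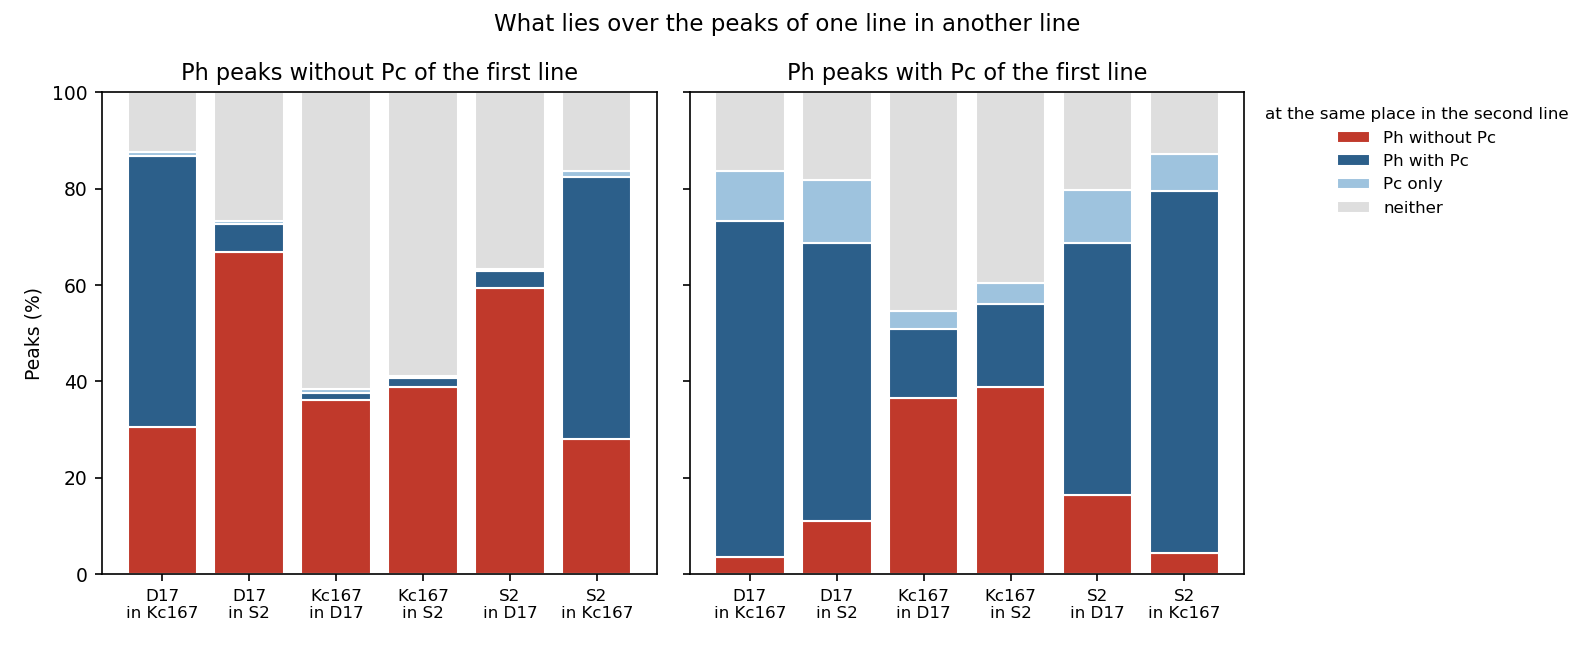
Percent of the Ph peaks of a first line, without Pc (left) and with Pc (right), by what lies over them in a second line: a Ph peak without Pc (red), a Ph peak with Pc (dark blue), Pc alone (light blue) or neither (grey). For D17 and S2 peaks without Pc, the dark blue section is 56.4% and 54.5% in Kc167, against 5.72% (D17 peaks in S2) and 3.47% (S2 peaks in D17).

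Kc167 Pc peaks over these places had lower folds than those over Ph peaks with Pc. They lay over 55.2% of the D17 peaks without Pc and 80.0% of those with Pc, with median Pc folds of 1.92 and 6.84, at the 54.7 and 95.5 percentiles of the Kc167 Pc list. Over the S2 peaks the shares were 51.0% without Pc and 82.8% with Pc, with median folds of 1.93 and 5.75. With the Kc167 Pc list shortened, they lay over 24.9% of the D17 peaks without Pc and 72.5% of those with Pc, and over 22.8% and 76.2% in S2.

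Merging overlapping Ph peaks of the 3 lines gave 7249 places, of which 2268 had Ph in all 3. Pc was absent in all 3 lines at 585 of these, in 2 lines at 1073, in 1 line at 225 and in none at 385. Places without Pc in D17 and S2 and with Pc in Kc167 numbered 1061. With Pc lists of equal length, the numbers were 1207 without Pc in all 3 lines, 479 in 2, 206 in 1 and 376 in none. Over the 585 places, H3K27ac lay in 52.8% in D17, 53.8% in Kc167 and 50.9% in S2, against 26.2%, 25.2% and 21.6% of the 385 places with Pc in all 3 lines. H3K27me3 lay over 3.25%, 10.6% and 7.86% of the 585, against 64.4%, 72.2% and 71.4% of the 385. In this set of places Kc167 thus had the same direction as the other lines for H3K27ac. A gene end was within 500 bp of 47.7% of the 585 and 47.5% of the 385.

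The 10 places without Pc in all 3 lines with the highest folds were, in order of their lowest percentile, CG1146 inside Svil, Mrp4, CHES-1-like, blot and Sec3, shot, Ak3, CG17834, Alp12 and Pax (the paxillin gene), CG13917, and Unc-76. At CG1146 the Ph folds were 35.1 in D17, 43.8 in Kc167 and 28.8 in S2. At Mrp4 they were 29.3, 51.6 and 31.5, with H3K27ac in all 3 lines. The CHES-1-like place had 37.5, 30.9 and 24.6, and Pho lay there in all 3 lines. Spps lay over each of the 10 in all 3 lines and Psc over none. H3K27ac lay in all 3 lines over 6, and CG13917 was under H3K27me3 in Kc167.

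Some Ph peaks without Pc in one line had Pc at the same place in another. Between D17 and S2 the strongest were in kay (D17 fold 38.6), pum, a translational repressor gene (27.4), and Tlk, a kinase gene (25.5), which had Pc in S2 and Kc167. In the other direction they were a second peak in Tlk (S2 fold 20.6), and peaks in CG1090 (17.9) and Ntan1 (17.8), with Pc in D17 and Kc167. The S2 peak in Tlk had a Pc peak 227 bp away in S2. Kc167 peaks without Pc that had Pc in D17 were weaker, with the highest near Myc inside CG12535 (6.17), in csw (4.58) and in E23 (4.44). Those with Pc in S2 were at Sema1a (14.8), in dnc (4.57) and near rn (3.46).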

How the data were processed

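The authors' deposited files are 50 peak lists in build dm6 from ChIP-seq libraries of D17, Kc167 and S2 cells. Per the submitters' processing notes, the tools were Trim Galore 0.6.4, Bowtie2 2.3.5.1, SAMtools 1.13, MACS2 2.2.6 and bedtools 2.29.2, with no role or order given. How replicates and input entered a list is not given in the sources used here, and depth is unknown. Each deposited peak has a score, a fold (a ratio) and significance as −log10 q. Folds described and ranked peaks within a list, and scores only shortened lists.

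From these files, overlap of at least 1 bp was counted and gene distances were measured from peak edges to either end of 13946 protein-coding genes in an NCBI gene table (assembly Release 6 plus ISO1 MT), which gives no strand. Shares have exact binomial intervals, and directions over 3 lines an exact sign-flip permutation test. Overlap counts equalled those of bedtools 2.31.1 in 47 of 47 comparisons, and planted overlaps were tested on simulated data. Python 3.11.15, NumPy 2.4.6, pandas 2.3.3, SciPy 1.17.1 and matplotlib 3.10.9 were used.

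Named were the 10 highest folds per line, the 10 places without Pc in 3 lines with the highest lowest percentile, the 3 highest folds per ordered pair of lines with Pc in the second, and at most 4 members of each of 16 gene lists, those with the highest Ph fold without Pc in any line, with other members only where a count was small, for genes without Pc in 3 lines, or for peaks with Pc. Of 375 list names, 2 found no match (Su(z)3 and let-7-C). The members and lists were chosen with earlier results of these data known. Alternatives were gaps of 1 kb to Pc, 50% overlap, shortened lists, leaving out X and Y or stretches at skipped peak numbers, midpoints, 1 kb around gene ends and, after seeing the data, absence of Psc and both lists shortened.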

Additional observations from a re-analysis of the deposited data

Results flagged for a closer look

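The sign of 6 of 21 differences between Ph peaks without Pc and with Pc was not the same in the lines measured. For H3K27ac the difference in share was 40.4 percentage points in D17, -17.6 in Kc167 and 27.4 in S2. For a gene end within 500 bp it was 10.3 points in D17, -12.6 in Kc167 and 4.60 in S2. For Ph in at least 1 other line it was 9.97 points in D17, -12.8 in Kc167 and -0.209 in S2. For peaks outside gene bodies and over 500 bp from an end it was -22.7 points in D17, 1.80 in Kc167 and -18.6 in S2. For H3K36me3 it was 11.3 points in D17, -1.41 in Kc167 and 6.10 in S2. For H3K4me2, with lists in D17 and S2, it was -3.66 points in D17 and 3.59 in S2. The intervals of the 2 sets overlapped for gene ends and sharing in S2, for peaks outside gene bodies and H3K36me3 in Kc167, and for H3K4me2 in both lines. With 1 list per antibody and line, the difference between lines was not tested. With the Kc167 Pc list shortened to 2387 peaks, the Kc167 values were 3.75 points for H3K27ac, 5.36 for H3K36me3 and -5.84 for gene ends.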

How the results depend on the processing

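No paired analysis was possible because each antibody and line has 1 list with no values per replicate; leaving out a replicate could not be done for the same reason. The distance to annotated starts was not run, since the gene table gives no strand. Of the recomputed values, 76 moved by no more than counting error (the interval of a share, or the summed half-widths of both intervals for a difference), 51 moved further and 2 reversed.

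The share of the Ph list without Pc in D17, Kc167 and S2 was 75.3%, 30.6% and 75.5% when no Pc peak could lie within 1 kb, 80.5%, 44.5% and 80.4% when Pc had to cover 50% of the Ph peak, 75.8%, 30.1% and 74.98% in the higher-scoring 50% of the Ph list, and 67.3%, 28.1% and 56.4% with no Psc peak either. In Kc167 it was 68.0% with Pc lists and 31.2% with Ph lists of equal length.

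H3K27ac over Ph peaks without Pc lay at 50.7% (1 kb), 60.8% (50% cover) and 67.5% (equal Pc lists) in Kc167, at 74.4% in D17 and 68.5% in S2 in the higher-scoring 50%, at 63.5% with equal Ph lists and 54.2% with no Psc in S2, and at 50.7%, 44.8% and 42.2% over the midpoint in D17, Kc167 and S2. H3K27me3 lay at 0.627% in D17 and 3.52% in S2 in the higher-scoring 50%, and in S2 at 4.56% with equal Ph lists, 10.98% without X and Y and 10.8% with no Psc.

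Sharing with another line was 54.96% (50% cover) and 52.6% (equal Pc lists) in Kc167, 94.3%, 56.8% and 94.4% in the higher-scoring 50% and 80.8%, 75.9% and 86.8% with equal Ph lists in D17, Kc167 and S2. It was 82.4% without X and Y in S2, and 85.9% in D17 and 46.4% in Kc167 when 50% of the Ph peak had to be shared. Gene ends lay within 1 kb of 51.3%, 44.5% and 50.6% in D17, Kc167 and S2, and within 500 bp of the midpoint of 34.2%, 34.0% and 35.3%.

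The difference without minus with Pc in the higher-scoring 50% was -11.8 points for H3K27me3 in Kc167, and 36.2 for H3K27ac and -51.8 for H3K27me3 in S2. In Kc167 it reversed for H3K27ac, to 3.75 points with equal Pc lists and 2.80 with both lists equal, against -17.6 with whole lists, and for H3K27me3 it was -20.4 and -22.9. The shortened list holds 2387 of the 6298 Kc167 Pc peaks. Ph peaks in stretches at skipped Pc numbers were 4.64%, 4.401% and 5.46% of those without Pc, and leaving them out kept the shares within their intervals.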
